A study of Mus musculus with 4 samples.

Results

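The nuclear genes for subunits of oxidative phosphorylation were examined in purified β-cells of NOD mice. The group holds the genes whose symbols begin with Ndufa, Ndufb, Ndufc, Ndufs, Ndufv, Uqcr, Cox4 to Cox8 or Atp5, plus *Sdha*, *Sdhb*, *Sdhc*, *Sdhd* and *Cyc1*, without pseudogenes and assembly factors. It was chosen by name and not by signal, and 84 of the 30176 genes measured with 1 symbol belong to it. Of these, 34 belong to complex I, 4 to complex II, 9 to complex III, 20 to complex IV and 17 to complex V.

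Oxidative phosphorylation runs in the inner mitochondrial membrane. Complexes I and II pass electrons from NADH and succinate to ubiquinone, complex III passes them on to cytochrome c, and complex IV hands them to oxygen, while complexes I, III and IV pump protons. Complex V, the ATP synthase, makes ATP as the protons flow back, and in β-cells the ATP formed from glucose closes potassium channels and so starts insulin release.

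Gene expression was measured on 4 Clariom D mouse arrays, with a *Tyk2*-/- and a *Tyk2*+/+ sample of female NOD mice at 11w and the same pair at 6w (weeks of age). NOD mice develop autoimmune diabetes spontaneously, and TYK2 is a kinase of cytokine receptors. The knockout was of the whole body and not limited to β-cells, and its allele came from 129/Sv mice, carried a neomycin resistance cassette and was brought onto NOD by way of C57BL/6J. Each array held RNA pooled from several mice, so there was 1 array per condition, no replicate error and no test of any single difference.

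The cells had been sorted as FluoZin-3-AM positive (a zinc dye), TMRE positive, CD45 negative and propidium iodide negative. TMRE is taken up by mitochondria with a membrane potential, so the gate itself used a mitochondrial property at both ages and in both genotypes. *Iapp*, a β-cell hormone gene, was at the highest signal of every array, but so were *Gcg* and *Sst*, the hormone genes of α- and δ-cells. *Tyk2* itself had a signal of 17.1 in *Tyk2*-/- and 18.8 in *Tyk2*+/+ mice at 11w, and 16.8 in *Tyk2*-/- and 15.5 in *Tyk2*+/+ mice at 6w, near the medians of all features, which ranged over the arrays between 15.7 and 17.5, so this feature could not check the genotype labels.

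The subunit genes were bright in these cells. Their median signal was 155 in *Tyk2*-/- and 146 in *Tyk2*+/+ mice at 11w, and 190 in *Tyk2*-/- and 203 in *Tyk2*+/+ mice at 6w, and 80 of the 84 lay at or above the median of all features. The 4 below it were *Cox7b2*, *Cox8b*, *Cox8c* and *Ndufa4l2*, which encode isoforms best known from other tissues or conditions. A signal is a brightness on a linear scale and depends on the probes, so levels were compared between arrays and not between genes. No subunit gene was at the highest signal of an array. However, *Ndufa1*, *Cox6c* and *Cox7c* differed between arrays in all 4 comparisons by exactly the step between the arrays' highest signals (to within 0.0001 on the log2 scale), and 8 members did so in at least 1 comparison; such values carry a scale step of the array and cannot show a change.

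The dominant pattern was age. In 64 of the 84 subunit genes (76.2%), both 11w arrays were below both 6w arrays, whereas 15.7% of all genes showed this order. Only *Cyc1* and *Cox8c* had both 11w arrays above both 6w arrays, and the ages overlapped in the remaining 18. The step between the arrays' highest signals is itself slightly below 0 with age (log2 −0.04 among *Tyk2*-/- and −0.11 among *Tyk2*+/+ arrays), and without the 7 members that carried it in an age comparison the order held for 57 of 77 (74.0%), beside 15.2% of all genes treated in the same way. The order held for 29 of 34 members of complex I, 4 of 4 of complex II, 6 of 9 of complex III, 12 of 20 of complex IV and 13 of 17 of complex V. The 6w *Tyk2*+/+ array was the highest for 52 members and the 6w *Tyk2*-/- array for 20, against 4 for 11w *Tyk2*-/- and 5 for 11w *Tyk2*+/+, and the rest had a tie.

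**Figure D1:**
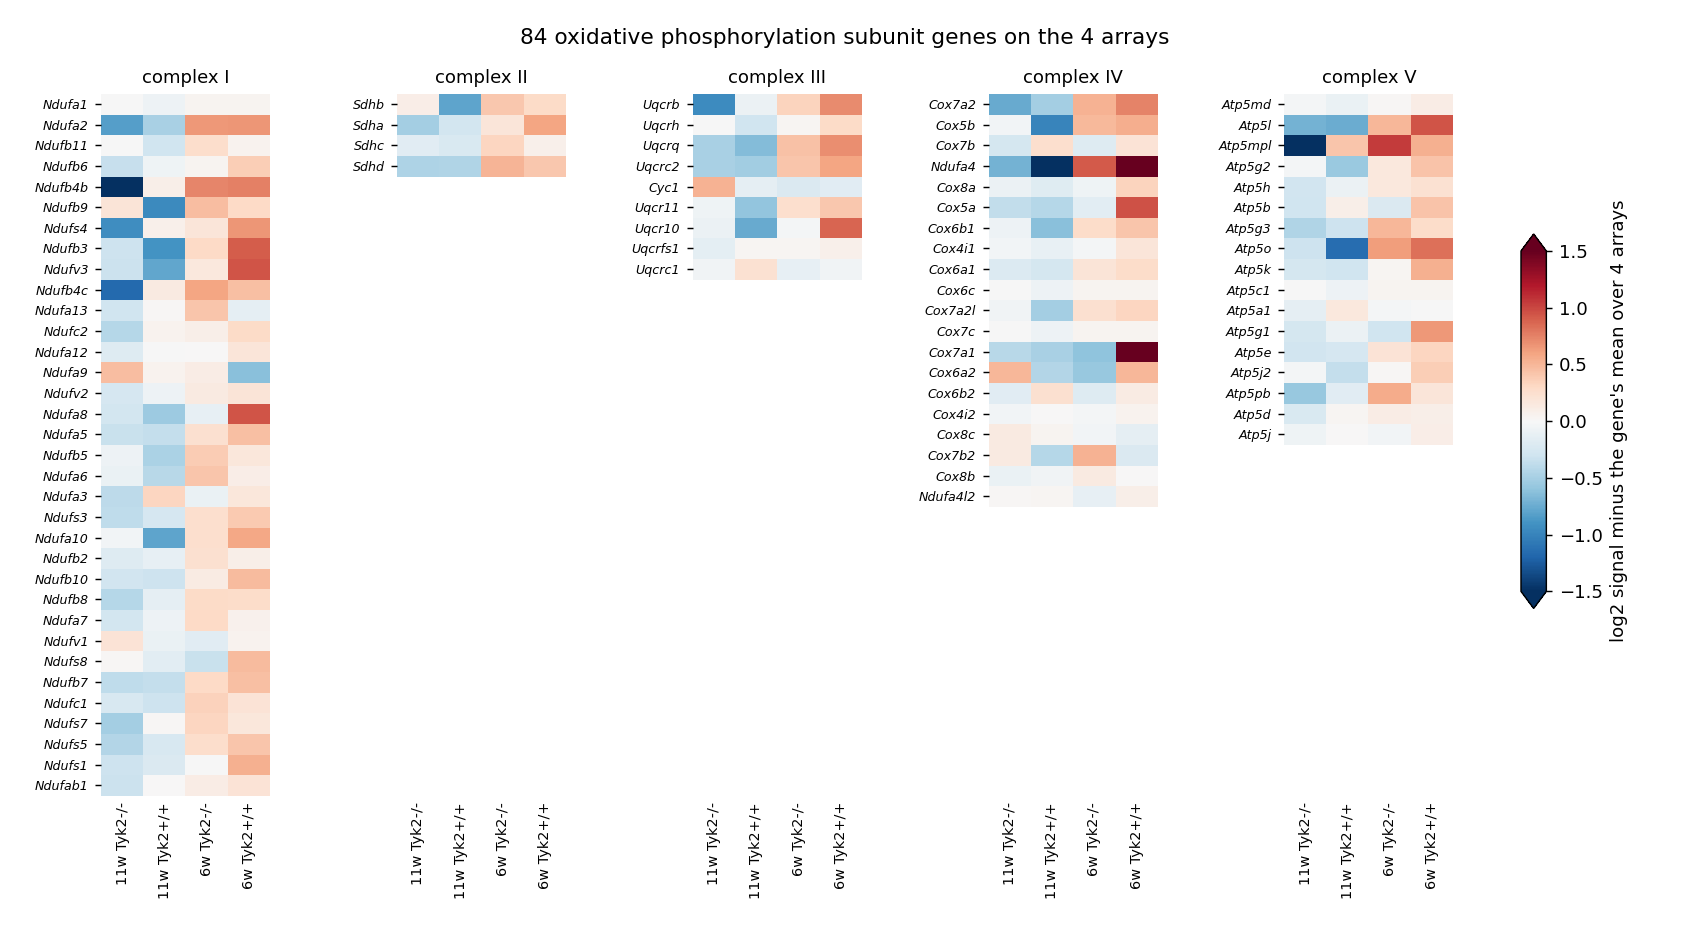
Signals of the 84 subunit genes on the 4 arrays, 1 column per array and 1 row per gene in order of falling mean signal within each complex; colour is the log2 signal minus the gene's mean over the 4 arrays, with the scale ending at ±1.5. Blue prevails in the 11w columns and red in the 6w columns, and both 11w arrays were below both 6w arrays in 64 of 84 genes.

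The size of the age difference was moderate. The median log2 difference of 11w minus 6w over the members was −0.35 between the *Tyk2*-/- arrays and −0.53 between the *Tyk2*+/+ arrays, while over all genes it was 0.05 and 0.07. The members with a lower 11w signal numbered 73 among the *Tyk2*-/- arrays and 75 among the *Tyk2*+/+ arrays, and 69 were lower in both genotypes, beside 21.0% of all genes; without the genes that carried the scale step, 62 of 77 members (80.5%) were, beside 20.6% of all genes. These 2 comparisons share no array. Per gene, the 2 age differences had a Pearson correlation of 0.27 over the 84 members and 0.31 over all genes. Genes on the same arrays are not independent replicates, and the labels do not say which arrays were processed together.

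A ratio below 0.66 in both genotypes was found in 15 members, against 3.26% of all genes. They were *Ndufa2*, *Ndufb3*, *Ndufb4b*, *Ndufb7*, *Ndufs3* and *Ndufs5* of complex I, *Sdha* and *Sdhd* of complex II, *Uqcrb*, *Uqcrc2* and *Uqcrq* of complex III, *Cox7a2* and *Ndufa4* of complex IV, and *Atp5l* and *Atp5o* of complex V. *Atp5l* is among them only by a feature that carries another chromosome in its identifier, and with features on the gene's own chromosome 14 members are left. No member had a ratio above 1.5 in both genotypes, a pattern seen in 0.891% of all genes.

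**Figure D2:**
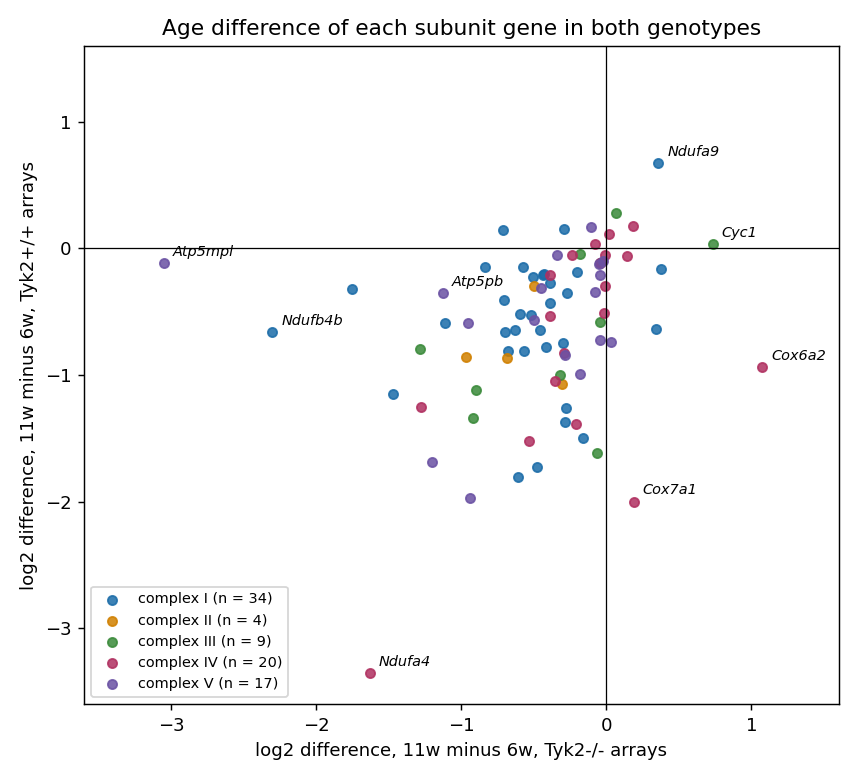
Log2 difference of 11w minus 6w for each of the 84 subunit genes, among *Tyk2*-/- arrays on the horizontal axis and among *Tyk2*+/+ arrays on the vertical axis, coloured by complex. Below 0 on both axes lie 69 genes; *Ndufa4* is the lowest on the vertical axis and *Atp5mpl* the lowest on the horizontal axis.

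Bright genes in general were lower at 11w, and the subunit genes are bright, so the members were also set beside genes of like signal. Among genes with a mean signal of 32 or more, both 11w arrays were below both 6w arrays in 61 of 73 members (83.6%), beside 37.4% of the 7366 other genes. At signals from 256 to 1024, 13 of 14 members (92.9%) were lower at 11w in both genotypes, beside 52.9% of 841 other genes. At signals of 4096 and over, the gap was small, with 11 of 11 members beside 85.8% of 606 other genes, or 8 of 8 members beside 82.6% of other genes without those that carried the scale step. A ratio below 0.66 in both genotypes was less set apart. At a signal of 32 or more, 20.5% of the members had it, beside 12.6% of the other genes. The members had the higher share at signals from 32 to 64 (27.3% beside 3.75%) and at 4096 and over (45.5% beside 36.3%). In every band from 64 to 4096 they had the lower share. It was 14.3% beside 22.2% from 256 to 1024, and 21.4% beside 35.2% from 1024 to 4096.

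**Figure D3:**
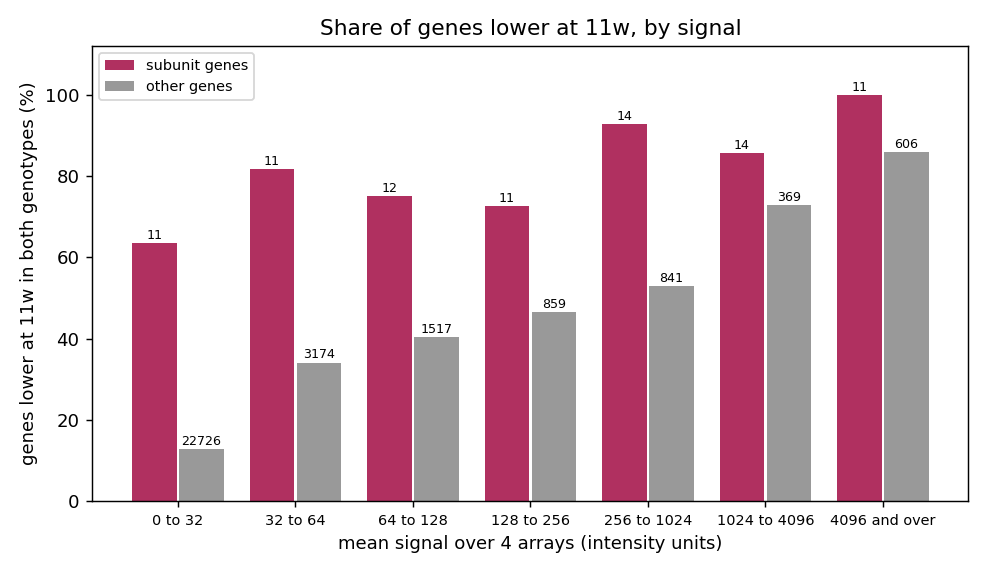
Share of genes whose 11w signal was below the 6w signal in both genotypes, by mean signal over the 4 arrays, for the subunit genes (left bars) and all other genes (right bars), with the number of genes above each bar. The subunit genes have the higher share in every band, and the share of other genes climbs with signal to 85.8%.

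The median difference of the features nearest in signal was then subtracted from each age difference. The members remained at a median of −0.18 between the *Tyk2*-/- arrays and −0.27 between the *Tyk2*+/+ arrays, with 58 and 61 of 84 below the local median. In both genotypes at once, 47 members were below it and 12 above it. About as much of the raw age difference was shared by other genes of the same brightness, where the local medians had a median of −0.17 (*Tyk2*-/-) and −0.25 (*Tyk2*+/+).

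The age pattern also depended on scaling. With quantile normalization, which makes the distribution of signals identical on all arrays, the median age difference of the members was −0.12 between the *Tyk2*-/- arrays and −0.21 between the *Tyk2*+/+ arrays. Both 11w arrays were then below both 6w arrays in 38 of 84 members (23.9% of all genes), and in 43.8% of the members at a signal of 32 or more beside 24.4% of other genes there.

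The differences were further judged by the study's own criteria, a Z score above 2 with a ratio above 1.5 or a Z score below −2 with a ratio below 0.66. The Z score was computed here as the log2 difference over the SD of such differences among features nearest in signal, and genes past both limits are named called. Few members were called. With age, 3 members were called lower between the *Tyk2*-/- arrays (1.35% of all genes) and 2 between the *Tyk2*+/+ arrays (1.45% of all genes); 0 were called higher, beside 1.61% of all genes among *Tyk2*-/- and 2.14% among *Tyk2*+/+ arrays. Between genotypes, 1 member was called lower at 11w (1.35% of all genes) and 0 higher (1.51%), while at 6w 1 was called lower (1.09%) and 1 higher (1.26%). The age pattern thus consisted of many moderate differences in a common direction, few of them past both limits.

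**Figure D4:**
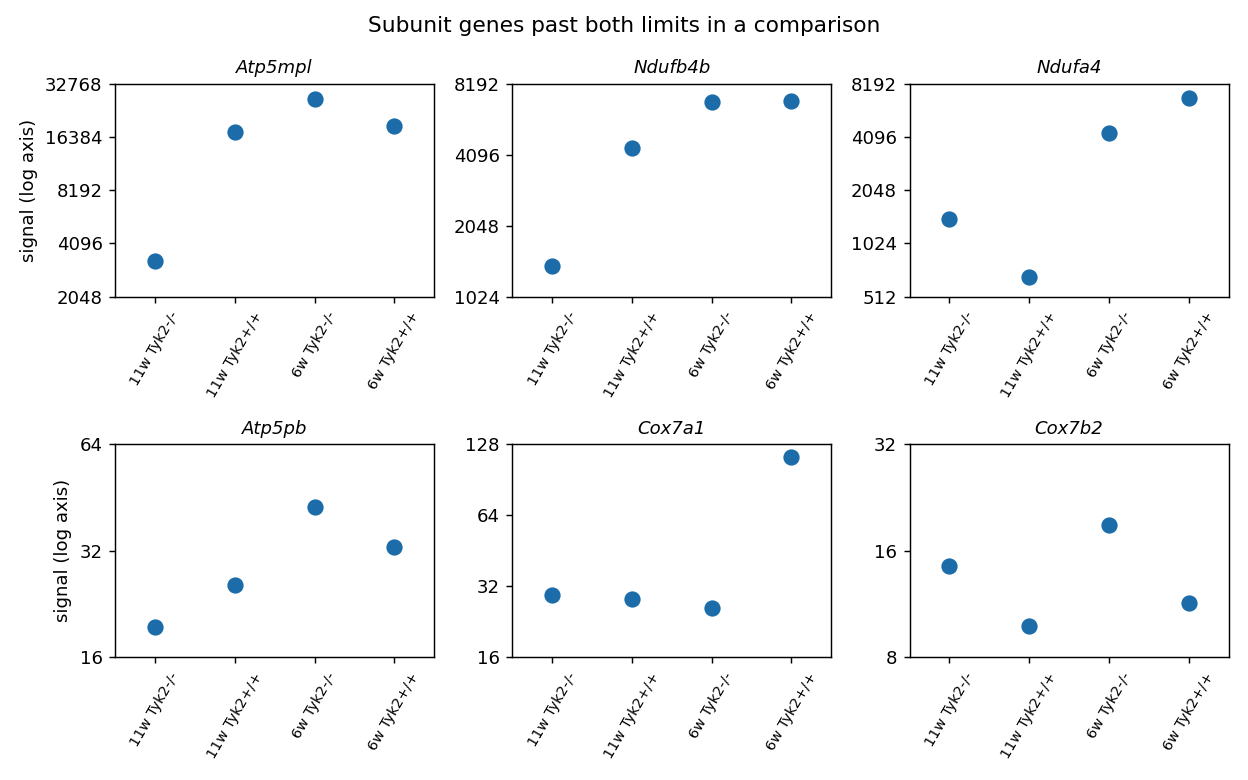
Signal of the 6 subunit genes that were called in at least 1 comparison, on the 4 arrays (log axis, 1 point per array). *Ndufa4* is low on both 11w arrays, *Atp5mpl* and *Ndufb4b* are lowest on the 11w *Tyk2*-/- array, and *Cox7a1* stands out on the 6w *Tyk2*+/+ array.

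Transcription factors known to act at the promoters of these genes are NRF1, the ETS factor GABP, the estrogen-related receptors (ERR) and YY1. The 300-base promoters of RefSeq (GRCm38.p6, 250 bases before to 50 after the start) were matched to 67 of the 84 members and searched on both strands for 4 short cores, GCGCATGC (NRF1), CGGAAGT (GABP), AAGGTCA (ERR) and AAGATGG (YY1), none of which contains another. The letters were settled after other lengths had been tried. The NRF1 core was found in 9 of the 67 (13.4%), beside 2.80% of 27025 promoters and 6.16% of those of other genes with a signal of 32 or more. The GABP core was found in 16.4% of the members, beside 6.59% of all promoters and 14.5% of those of the other bright genes. For ERR the shares were 10.4% of members, 4.66% of all and 2.60% of the other bright genes, and for YY1 13.4% of members, 6.48% of all and 8.65% of the other bright genes. At least 1 core was present in 31 of 67 members (46.3%), beside 18.9% of all promoters. This combined share was not counted for the other bright genes. Their single shares were above those of all promoters for NRF1, GABP and YY1 and below for ERR. Both 11w arrays were below both 6w arrays in 8 of the 9 members with the NRF1 core, 9 of 11 with GABP, 7 of 7 with ERR and 7 of 9 with YY1. Of the members without a given core, 45 of 58 (NRF1), 44 of 56 (GABP), 46 of 60 (ERR) and 46 of 58 (YY1) had this order, so the shares with and without a core were close for GABP and YY1. A match is a description of letters and not of binding.

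Printed below, 5′ to 3′ on the gene's strand with the cores of either strand in capitals, are the promoters of 4 members with low 11w signals: *Uqcr11*, with both a GABP and an NRF1 core, *Sdhd*, with an ERR core, *Ndufs4*, with a YY1 core, and *Ndufa4*, which had the largest age difference and none of the 4 cores in this window.
*Uqcr11* (chr10:80406772-80407071, minus strand): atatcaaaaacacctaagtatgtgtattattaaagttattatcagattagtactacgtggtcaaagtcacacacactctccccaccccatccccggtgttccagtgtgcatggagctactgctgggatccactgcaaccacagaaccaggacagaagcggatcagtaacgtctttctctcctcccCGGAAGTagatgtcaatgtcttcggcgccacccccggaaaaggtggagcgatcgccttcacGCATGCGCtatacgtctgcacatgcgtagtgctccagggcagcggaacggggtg
*Sdhd* (chr9:50603800-50604099, minus strand): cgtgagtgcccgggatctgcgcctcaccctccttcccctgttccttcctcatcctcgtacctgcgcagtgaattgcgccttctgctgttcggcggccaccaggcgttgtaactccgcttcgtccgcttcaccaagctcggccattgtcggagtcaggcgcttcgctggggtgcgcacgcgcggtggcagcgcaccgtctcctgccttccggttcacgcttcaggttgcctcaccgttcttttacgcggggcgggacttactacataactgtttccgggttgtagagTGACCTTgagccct
*Ndufs4* (chr13:114388045-114388344, minus strand): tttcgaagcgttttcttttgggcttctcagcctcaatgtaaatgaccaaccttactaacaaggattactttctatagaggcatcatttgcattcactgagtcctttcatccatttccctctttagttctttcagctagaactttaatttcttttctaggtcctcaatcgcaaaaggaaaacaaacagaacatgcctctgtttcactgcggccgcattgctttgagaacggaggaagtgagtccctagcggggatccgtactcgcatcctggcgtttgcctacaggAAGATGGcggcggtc
*Ndufa4* (chr6:11907401-11907700, minus strand): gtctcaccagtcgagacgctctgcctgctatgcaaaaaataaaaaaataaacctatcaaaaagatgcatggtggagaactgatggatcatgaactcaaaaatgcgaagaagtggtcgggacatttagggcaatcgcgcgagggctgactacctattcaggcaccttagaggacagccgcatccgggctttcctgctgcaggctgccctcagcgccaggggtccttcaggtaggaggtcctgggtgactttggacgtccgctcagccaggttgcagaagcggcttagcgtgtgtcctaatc

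Complex I oxidizes NADH. Its 34 members had a median age difference of −0.47 between the *Tyk2*-/- arrays and −0.52 between the *Tyk2*+/+ arrays, with 31 lower in each. The 6 core subunits measured belong to the arm of the complex that holds the flavin and the iron-sulfur clusters. *Ndufs3* had 121 in *Tyk2*-/- and 132 in *Tyk2*+/+ mice at 11w, and 188 in *Tyk2*-/- and 207 in *Tyk2*+/+ mice at 6w, so the ages did not overlap. *Ndufs7* lay between 43.6 and 63.0 at 11w and between 69.7 and 77.9 at 6w, *Ndufs1* between 27.8 and 29.7 at 11w and between 34.2 and 49.9 at 6w and *Ndufv2* between 366 and 413 at 11w and between 480 and 498 at 6w, again with both 11w arrays lower. In contrast, *Ndufv1*, which holds the NADH binding site, had 143 in *Tyk2*-/- and 116 in *Tyk2*+/+ mice at 11w, and 111 in *Tyk2*-/- and 129 in *Tyk2*+/+ mice at 6w. *Ndufs8*, an iron-sulfur subunit, lay between 108 and 122 at 11w and between 95.8 and 168 at 6w, and the ages overlapped in both of these genes.

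Among the accessory subunits of complex I, *Ndufa2* was well apart by age. It had 13650 in *Tyk2*-/- and 17310 in *Tyk2*+/+ mice at 11w, and 37834 in *Tyk2*-/- and 38375 in *Tyk2*+/+ mice at 6w, which are log2 differences of −1.47 among *Tyk2*-/- and −1.15 among *Tyk2*+/+ arrays. *Ndufb3* had 1082 in *Tyk2*-/- and 718 in *Tyk2*+/+ mice at 11w, and 1653 in *Tyk2*-/- and 2507 in *Tyk2*+/+ mice at 6w. In both genes the lowest 6w signal was above the highest 11w signal. *Ndufs4*, whose loss causes a Leigh-like disease in mice and whose promoter is printed above, had 919 in *Tyk2*-/- and 1842 in *Tyk2*+/+ mice at 11w, and 1989 in *Tyk2*-/- and 2768 in *Tyk2*+/+ mice at 6w. *Ndufa1*, the brightest of the complex, was at 221387 on both 6w arrays and followed the scale step of the arrays.

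*Ndufb4b* was called lower with age among the *Tyk2*-/- arrays (log2 difference −2.30, Z = −2.12). It had 1381 in *Tyk2*-/- and 4371 in *Tyk2*+/+ mice at 11w, and 6820 in *Tyk2*-/- and 6921 in *Tyk2*+/+ mice at 6w, so the 11w *Tyk2*-/- array stood apart from the other 3. *Ndufb4c* had 504 in *Tyk2*-/- and 1239 in *Tyk2*+/+ mice at 11w, and 1705 in *Tyk2*-/- and 1544 in *Tyk2*+/+ mice at 6w, with the same array lowest. Both are copies of *Ndufb4*, which was measured only in a feature that names all 3 genes, so the signals could not be assigned to 1 copy. That shared feature lay between 321 and 429 at 11w and between 466 and 483 at 6w. *Ndufa9*, a subunit close to the quinone site, went the other way, with 784 in *Tyk2*-/- and 587 in *Tyk2*+/+ mice at 11w, and 612 in *Tyk2*-/- and 368 in *Tyk2*+/+ mice at 6w.

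All 4 subunits of complex II, the succinate dehydrogenase of the citric acid cycle, had both 11w arrays below both 6w arrays. *Sdha*, the flavoprotein, had 42.5 in *Tyk2*-/- and 50.0 in *Tyk2*+/+ mice at 11w, and 68.4 in *Tyk2*-/- and 91.0 in *Tyk2*+/+ mice at 6w. *Sdhb*, the iron-sulfur subunit, had 350 in *Tyk2*-/- and 188 in *Tyk2*+/+ mice at 11w, and 432 in *Tyk2*-/- and 396 in *Tyk2*+/+ mice at 6w. These 2 subunits form the part of the complex that faces the matrix, and *Sdhc* and *Sdhd* anchor it in the membrane. *Sdhc* had 46.0 in *Tyk2*-/- and 44.4 in *Tyk2*+/+ mice at 11w, and 65.0 in *Tyk2*-/- and 54.5 in *Tyk2*+/+ mice at 6w. *Sdhd* had 30.0 in *Tyk2*-/- and 30.1 in *Tyk2*+/+ mice at 11w, and 58.7 in *Tyk2*-/- and 54.6 in *Tyk2*+/+ mice at 6w. In *Sdhd*, whose promoter is printed above, the age difference was −0.97 (*Tyk2*-/-) and −0.86 (*Tyk2*+/+) on the log2 scale.

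In complex III, neither of the 2 redox-active subunits measured had both 11w arrays below both 6w arrays. *Cyc1*, cytochrome c1, had 320 in *Tyk2*-/- and 204 in *Tyk2*+/+ mice at 11w, and 193 in *Tyk2*-/- and 199 in *Tyk2*+/+ mice at 6w, so the 11w *Tyk2*-/- array was above the other 3. *Uqcrfs1*, the Rieske iron-sulfur protein, was dim, between 23.8 and 27.1 at 11w and between 27.1 and 27.9 at 6w. It was lower with age in both genotypes (−0.18 among *Tyk2*-/- and −0.05 among *Tyk2*+/+ arrays). It missed the order only by a tie of the 11w *Tyk2*+/+ and 6w *Tyk2*-/- arrays. The small subunit *Uqcrb*, by contrast, had 21887 in *Tyk2*-/- and 39638 in *Tyk2*+/+ mice at 11w, and 53217 in *Tyk2*-/- and 68820 in *Tyk2*+/+ mice at 6w. *Uqcrq*, another small subunit, had 1218 in *Tyk2*-/- and 1089 in *Tyk2*+/+ mice at 11w, and 2303 in *Tyk2*-/- and 2758 in *Tyk2*+/+ mice at 6w, and here too the ages did not overlap. *Uqcr10* had 71.6 in *Tyk2*-/- and 45.3 in *Tyk2*+/+ mice at 11w, and 74.9 in *Tyk2*-/- and 139 in *Tyk2*+/+ mice at 6w, so its 6w *Tyk2*-/- array was close to its 11w *Tyk2*-/- array. *Uqcr11*, whose promoter is printed above, had 124 in *Tyk2*-/- and 86.0 in *Tyk2*+/+ mice at 11w, and 155 in *Tyk2*-/- and 172 in *Tyk2*+/+ mice at 6w, with the ages apart. *Uqcrh*, the hinge protein, lay between 1871 and 2289 at 11w and between 2359 and 2804 at 6w and matched the scale step of the arrays in at least 1 comparison.

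*Ndufa4*, once assigned to complex I and now placed in complex IV, had the largest difference of all members in any comparison. It had 1397 in *Tyk2*-/- and 664 in *Tyk2*+/+ mice at 11w, and 4326 in *Tyk2*-/- and 6799 in *Tyk2*+/+ mice at 6w. It was called lower with age among *Tyk2*+/+ arrays (log2 difference −3.36, Z = −3.32), and the difference among *Tyk2*-/- arrays was −1.63 without a call. Both 11w arrays were below both 6w arrays.

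The common subunits of complex IV, which surround its catalytic core, mostly had the same order of ages. *Cox7a2* had 51226 in *Tyk2*-/- and 60327 in *Tyk2*+/+ mice at 11w, and 124087 in *Tyk2*-/- and 143890 in *Tyk2*+/+ mice at 6w. *Cox5b*, a zinc-binding subunit, had 4082 in *Tyk2*-/- and 2128 in *Tyk2*+/+ mice at 11w, and 5919 in *Tyk2*-/- and 6122 in *Tyk2*+/+ mice at 6w. The ages did not overlap in either, nor in *Cox6b1* (between 565 and 831 at 11w and between 1061 and 1171 at 6w), *Cox6a1* (between 311 and 325 at 11w and between 426 and 451 at 6w), *Cox7a2l* (between 49.9 and 68.7 at 11w and between 84.2 and 88.6 at 6w) or *Cox8a* (between 1953 and 2081 at 11w and between 2105 and 2782 at 6w). *Cox7b* had 2413 in *Tyk2*-/- and 3452 in *Tyk2*+/+ mice at 11w, and 2543 in *Tyk2*-/- and 3362 in *Tyk2*+/+ mice at 6w, which separated the genotypes and not the ages. *Cox4i1*, the common isoform of the regulatory subunit 4, lay between 512 and 538 at 11w and between 541 and 628 at 6w and matched the scale step in at least 1 comparison.

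The isoforms of complex IV that are restricted to some tissues were dim. *Cox4i2*, the lung isoform, stayed between 20.1 and 21.5 on the 4 arrays, *Ndufa4l2* between 7.70 and 8.90, and *Cox8b*, a muscle isoform, between 8.05 and 9.50. *Cox6b2*, a testis isoform, lay between 19.9 and 26.4 at 11w and between 19.7 and 24.4 at 6w, and *Cox8c*, also of testis, between 14.9 and 15.9 at 11w and between 13.1 and 14.0 at 6w. *Cox7b2*, the testis partner of *Cox7b*, had 14.5 in *Tyk2*-/- and 9.81 in *Tyk2*+/+ mice at 11w, and 18.9 in *Tyk2*-/- and 11.4 in *Tyk2*+/+ mice at 6w. It was called higher between the 6w genotypes (log2 difference 0.73, Z = 3.04), at signals around or below the array medians. The 6 testis markers measured had 0 calls, with summed signals of 84.2 in *Tyk2*-/- and 77.1 in *Tyk2*+/+ mice at 11w, and 75.1 in *Tyk2*-/- and 71.6 in *Tyk2*+/+ mice at 6w; their part in the result was not tested.

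The muscle isoform *Cox7a1* stood apart on 1 array. It had 29.5 in *Tyk2*-/- and 28.2 in *Tyk2*+/+ mice at 11w, and 25.9 in *Tyk2*-/- and 113 in *Tyk2*+/+ mice at 6w. It was called lower in 6w *Tyk2*-/- than in 6w *Tyk2*+/+ mice (log2 difference −2.12, Z = −2.26) and lower with age among *Tyk2*+/+ arrays (ratio 0.250, Z = −2.02), and both calls rest on the 6w *Tyk2*+/+ array. *Cox6a2*, the other muscle isoform, had 49.4 in *Tyk2*-/- and 25.8 in *Tyk2*+/+ mice at 11w, and 23.5 in *Tyk2*-/- and 49.4 in *Tyk2*+/+ mice at 6w, so the 11w *Tyk2*-/- and 6w *Tyk2*+/+ arrays were the high ones. All 10 muscle markers lacked calls. At 11w, 7 of them were higher among *Tyk2*-/- arrays (17757 of 30176 genes) and 8 among *Tyk2*+/+ arrays (18477 genes). The 2 that were lower with age in both genotypes were *Ckm* and *Acta1*, which stayed between 13.3 and 18.0. The summed signals of the 10 muscle markers were 169 in *Tyk2*-/- and 169 in *Tyk2*+/+ mice at 11w, and 158 in *Tyk2*-/- and 157 in *Tyk2*+/+ mice at 6w.

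In complex V, the α and β subunits of the catalytic F1 part did not separate the ages. *Atp5a1*, the α subunit, had 126 in *Tyk2*-/- and 154 in *Tyk2*+/+ mice at 11w, and 135 in *Tyk2*-/- and 137 in *Tyk2*+/+ mice at 6w. *Atp5b*, the β subunit that holds the active site, had 540 in *Tyk2*-/- and 705 in *Tyk2*+/+ mice at 11w, and 569 in *Tyk2*-/- and 894 in *Tyk2*+/+ mice at 6w, and the ages overlapped in both. *Atp5c1*, of the central stalk, stayed between 144 and 152 at 11w and was at 157 on both 6w arrays, and *Atp5d* lay between 19.4 and 23.3 at 11w and between 24.2 and 24.6 at 6w. The widest gap of the 5 was in *Atp5e*, which lay between 94.6 and 97.1 at 11w and between 133 and 144 at 6w.

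The 3 genes of the proton-carrying c-ring encode the same mature protein. *Atp5g1* had 104 in *Tyk2*-/- and 118 in *Tyk2*+/+ mice at 11w, and 102 in *Tyk2*-/- and 197 in *Tyk2*+/+ mice at 6w. *Atp5g2* had 1459 in *Tyk2*-/- and 1007 in *Tyk2*+/+ mice at 11w, and 1655 in *Tyk2*-/- and 1997 in *Tyk2*+/+ mice at 6w. *Atp5g3* had 236 in *Tyk2*-/- and 260 in *Tyk2*+/+ mice at 11w, and 457 in *Tyk2*-/- and 391 in *Tyk2*+/+ mice at 6w. *Atp5g2* and *Atp5g3* were lower on both 11w arrays, whereas *Atp5g1* was high only on the 6w *Tyk2*+/+ array. The *Atp5g2* feature used carries chromosome 7 in its identifier while the gene lies on chromosome 15; its feature on chromosome 15 lay between 176 and 201 at 11w and between 227 and 259 at 6w, with the same order of ages.

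The stalk and membrane subunits held the largest differences of complex V. *Atp5o*, of the peripheral stalk, had 215 in *Tyk2*-/- and 121 in *Tyk2*+/+ mice at 11w, and 411 in *Tyk2*-/- and 472 in *Tyk2*+/+ mice at 6w. *Atp5pb*, the b subunit of the stalk, had 19.5 in *Tyk2*-/- and 25.7 in *Tyk2*+/+ mice at 11w, and 42.5 in *Tyk2*-/- and 32.7 in *Tyk2*+/+ mice at 6w, and was called lower with age among *Tyk2*-/- arrays (log2 difference −1.13, Z = −2.09). *Atp5l*, of the membrane part, had 66471 in *Tyk2*-/- and 64815 in *Tyk2*+/+ mice at 11w, and 152939 in *Tyk2*-/- and 208408 in *Tyk2*+/+ mice at 6w. That feature carries chromosome 5 while the gene lies on chromosome 9, and the brighter of its 2 features on chromosome 9 lay between 34.5 and 41.3 at 11w and between 48.8 and 51.7 at 6w, with both 11w arrays below but differences of only −0.50 among *Tyk2*-/- and −0.32 among *Tyk2*+/+ arrays. In the dimmer one the ages overlapped, with 26.1 in *Tyk2*-/- and 30.3 in *Tyk2*+/+ mice at 11w, and 23.2 in *Tyk2*-/- and 30.0 in *Tyk2*+/+ mice at 6w. *Atp5md*, the brightest member, lay between 682680 and 717227 at 11w and between 739044 and 787429 at 6w, near the top of the scale.

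*Atp5mpl*, a small membrane protein of the ATP synthase, was the only member called between the genotypes at 11w. It had 3252 in *Tyk2*-/- and 17411 in *Tyk2*+/+ mice at 11w, and 26908 in *Tyk2*-/- and 18849 in *Tyk2*+/+ mice at 6w. The log2 difference was −2.42 (Z = −2.88) between the 11w genotypes and −3.05 (Z = −2.86) between the *Tyk2*-/- ages, and both calls rest on the 11w *Tyk2*-/- array, which was far below the other 3. Between the *Tyk2*+/+ ages the difference was −0.11, exactly the scale step of the arrays, so that pair cannot show a change.

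Between the genotypes, the members showed little common direction at 11w. The median log2 difference of *Tyk2*-/- minus *Tyk2*+/+ was 0.03 (0.01 over all genes), with 44 members higher and 40 lower. At 6w it was −0.14 (0.03 over all genes), with 22 higher and 59 lower; after subtraction of the local median of genes of like signal it was −0.12. The lower 6w *Tyk2*-/- signals included *Cox5a*, with 832 in *Tyk2*-/- and 801 in *Tyk2*+/+ mice at 11w, and 963 in *Tyk2*-/- and 2094 in *Tyk2*+/+ mice at 6w, and *Ndufa8*, with 313 in *Tyk2*-/- and 259 in *Tyk2*+/+ mice at 11w, and 349 in *Tyk2*-/- and 732 in *Tyk2*+/+ mice at 6w. In both genes the 6w *Tyk2*+/+ array alone was high. The 6w comparison shares its *Tyk2*+/+ array with the age comparison of that genotype. *Tyk2* lies on chromosome 9, where the study's microsatellite typing of the knockout line found a marker that was not of NOD origin. On that chromosome lie 5 members, *Cox5a*, *Cox7a2*, *Sdhd*, *Uqcrc1* and *Atp5l*. Their genotype differences lay between −0.29 and 0.06 at 11w and between −1.12 and 0.11 at 6w. For *Atp5l* the feature used carries chromosome 5 in its identifier. Its features on chromosome 9 had −0.22 and −0.26 at 11w, and −0.37 and −0.09 at 6w. The part of flanking DNA in these differences was not tested. The genotype difference lay past the ratio limits in opposite directions at the ages in 4 members, beside 1.44% of all genes, and the age difference did so between the genotypes in 1 member, beside 1.17% of all genes. Most members are brighter than most genes, and these shares were not counted among genes of like signal.

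**Figure D5:**
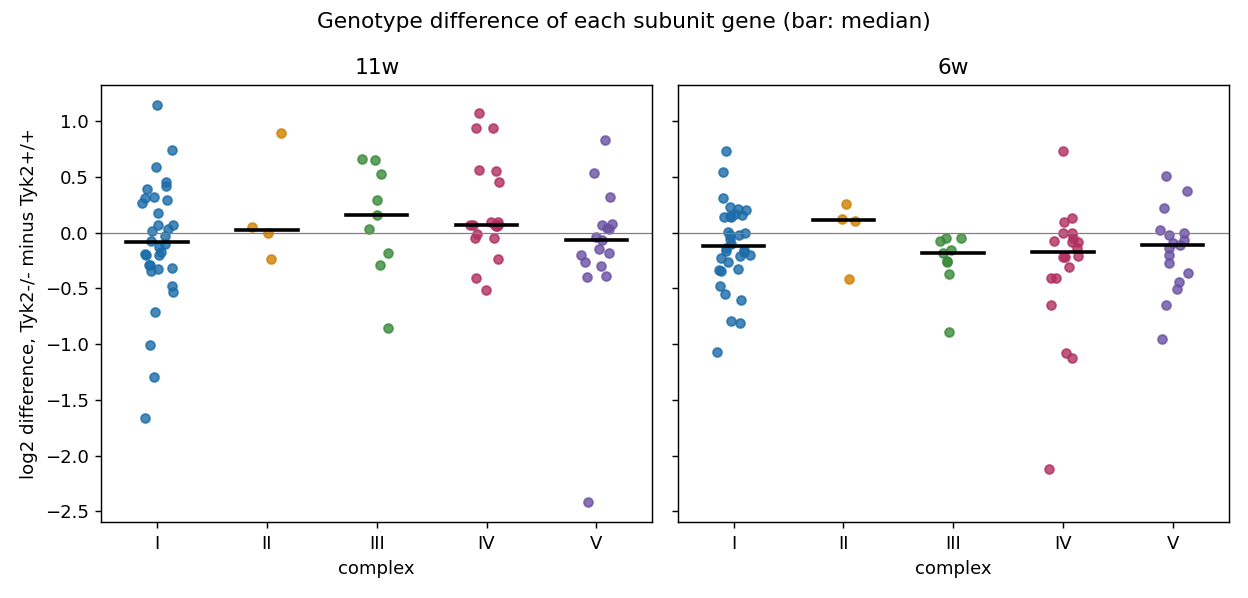
Log2 difference of *Tyk2*-/- minus *Tyk2*+/+ for each subunit gene at 11w (left) and 6w (right), by complex, with the median of each complex as a bar. The medians stay within 0.2 of 0, and the lowest points are *Atp5mpl* at 11w (−2.42) and *Cox7a1* at 6w (−2.12).

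A fit with all 4 arrays gave an age term over both genotypes. With limma on all genes and no interaction, 1 residual degree of freedom is left per gene, and the error is the difference of the age changes between the genotypes and not replicate error. At an adjusted p under 0.05, 0 of 84 members and 0.00% of genes were called for age, and 0 members and 0.00% for genotype. The smallest adjusted p of a member was 0.354 for age (0.243 to 0.486 over 4 other settings) and 0.924 for genotype. At an unadjusted p under 0.05, 28 members passed for age beside 10.7% of all genes, and 7 for genotype beside 4.86%. Among the members with the smallest p-values for age were *Cox7a2*, at −1.27 ± 0.10, and *Sdhd*, at −0.91 ± 0.11 (log2 estimate ± SE of the limma fit).

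Genes around the respiratory chain shared the age pattern only in part. Among 11 measured electron carriers and entry points of the chain, 6 were lower with age in both genotypes and 0 were called. Their median differences were −0.10 (*Tyk2*-/-) and −0.21 (*Tyk2*+/+). The brightest of them, *Cycs*, cytochrome c, had 15184 in *Tyk2*-/- and 19141 in *Tyk2*+/+ mice at 11w, and 25422 in *Tyk2*-/- and 26415 in *Tyk2*+/+ mice at 6w. Of 12 citric acid cycle enzymes, 3 were lower with age in both genotypes, with median differences of 0.17 (*Tyk2*-/-) and −0.23 (*Tyk2*+/+), and 0 were called. The 74 mitochondrial ribosomal proteins had medians of −0.07 (*Tyk2*-/-) and −0.21 (*Tyk2*+/+), and 34 (45.9%) were lower in both genotypes. Of 44 cytosolic ribosomal proteins, 37 (84.1%) were lower in both, with medians of −0.07 (*Tyk2*-/-) and −0.26 (*Tyk2*+/+), but 14 of the 44 carried the scale step of the arrays, and of the other 30, 24 (80.0%) were lower in both, close to the 80.5% of subunit genes counted in the same way.

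Assembly factors are described by the same counts, beside the 21.0% of all genes that were lower with age in both genotypes and the 1.09% to 2.14% called in 1 direction of a comparison. The factors of complexes I and IV had median signals between 27.8 and 64.7 over the arrays. They were dimmer than the members and were not compared at like signal. Of 14 factors of complex I, 3 were lower in both; *Ndufaf6* was called lower between the 11w genotypes (−1.07) and *Tmem126b* (−1.96) and *Ecsit* (−0.91) between the 6w genotypes. Of 15 measured factors of complex IV, 4 were lower in both genotypes, and *Cox11*, which delivers copper, was called higher with age among *Tyk2*+/+ arrays (2.55). The 4 measured factors of complex III were lower in both genotypes, and 2 of the 4 of complex II. Of the 5 of complex V, 0 were lower in both, *Fmc1* was called higher (1.20) and *Atpaf2* lower (−0.97) between the 11w genotypes, and *Atpaf1* higher between the 6w genotypes (2.46).

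Among 12 measured regulators of these genes, 4 were lower with age in both genotypes. *Yy1* had 97.0 in *Tyk2*-/- and 90.3 in *Tyk2*+/+ mice at 11w, and 299 in *Tyk2*-/- and 301 in *Tyk2*+/+ mice at 6w, and *Tfam*, which packages and transcribes mitochondrial DNA, lay between 62.4 and 66.9 at 11w and between 92.3 and 97.6 at 6w. Neither was called. *Tfb2m*, a mitochondrial transcription factor, was called lower in 6w *Tyk2*-/- than in 6w *Tyk2*+/+ mice (−1.79) and with age among *Tyk2*+/+ arrays (−1.74), and *Gabpb1*, a subunit of GABP, with age among *Tyk2*+/+ arrays (−0.89). *Nrf1* and *Ppargc1a* were dim, at or below a signal of 19.3 on all arrays.

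Only 3 subunits encoded in mitochondrial DNA were measured. *COX1* was at the highest signal of every array and can show no change. *ND3* had 7499 in *Tyk2*-/- and 6032 in *Tyk2*+/+ mice at 11w, and 17764 in *Tyk2*-/- and 27933 in *Tyk2*+/+ mice at 6w and was called lower with age among *Tyk2*+/+ arrays (−2.21). *ND6* lay between 2470 and 2535 at 11w and between 2112 and 2725 at 6w, so its ages overlapped.

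Markers of β-cells and other cells moved with some of these comparisons. The 12 β-cell markers measured had a median age difference of 0.07 among *Tyk2*-/- and −0.94 among *Tyk2*+/+ arrays, with 0 and 3 called lower (*Ucn3*, *G6pc2* and *Slc2a2*). Between the 6w genotypes their median was −0.49, and *Ucn3* (−5.60), *G6pc2* (−2.67) and *Pcsk1* (−1.89) were called lower. *Ucn3*, a peptide of mature β-cells, had 34.9 in *Tyk2*-/- and 22.4 in *Tyk2*+/+ mice at 11w, and 22.0 in *Tyk2*-/- and 1067 in *Tyk2*+/+ mice at 6w, so these calls share the high 6w *Tyk2*+/+ array with *Cox7a1*, *Cox5a* and *Ndufa8*. *Mafa*, a β-cell transcription factor, was called higher between the 11w genotypes (0.60) at signals between 12.4 and 18.8 at 11w. The sum over these markers follows *Iapp* at the top of the scale; without *Iapp* and *Ins2*, which carried the scale step, the other 10 summed to 14569 in *Tyk2*-/- and 11716 in *Tyk2*+/+ mice at 11w, and 21720 in *Tyk2*-/- and 24899 in *Tyk2*+/+ mice at 6w, most of it from *Slc30a8*, the zinc transporter of insulin granules.

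Of 15 acinar markers, *Cela2a*, *Sycn*, *Gp2*, *Ctrl* and *Clps* were called higher in 11w *Tyk2*-/- than in 11w *Tyk2*+/+ mice, with sums of 423 in *Tyk2*-/- and 288 in *Tyk2*+/+ mice at 11w, and 281 in *Tyk2*-/- and 326 in *Tyk2*+/+ mice at 6w. *Cela2a*, *Sycn* and *Gp2* were also called higher with age among *Tyk2*-/- arrays, *Zg16* higher with age among *Tyk2*+/+ arrays (0.61) and *Prss2* lower between the 6w genotypes (−1.11). Of 13 markers of stroma and endothelium, *Dpt*, a matrix protein of fibroblasts, had 4756 in *Tyk2*-/- and 1758 in *Tyk2*+/+ mice at 11w, and 345 in *Tyk2*-/- and 2577 in *Tyk2*+/+ mice at 6w, and was called lower between the 6w genotypes (−2.90) and higher with age among *Tyk2*-/- arrays (3.78). *Lum*, another matrix gene of the list, went the opposite way to *Dpt* without a call. It was at 1.37 between the 6w genotypes and −1.69 with age among *Tyk2*-/- arrays. *Col1a1*, *Col1a2* and *Col3a1* stayed between 20.0 and 34.6 on all arrays. *Plvap*, of endothelium, was called higher between the 11w genotypes (0.75) and with age among *Tyk2*-/- arrays (0.71). The 22 leukocyte markers had 0 calls and sums between 360 and 364 at 11w and between 317 and 327 at 6w. At 11w, 18 were higher among *Tyk2*-/- arrays (17757 of 30176 genes) and 19 among *Tyk2*+/+ arrays (18477 genes). *Ptprc* lay between 15.2 and 15.9 at 11w and between 12.8 and 13.4 at 6w, and *Cd3e* between 11.1 and 14.2 on all arrays. Only *Lyz2* had a ratio above 1.5 in both genotypes, with 31.5 in *Tyk2*-/- and 37.8 in *Tyk2*+/+ mice at 11w and 20.2 in both at 6w. Fewer cells of a type and less RNA per cell cannot be told apart in bulk RNA, and the part of these markers in the subunit genes' differences was not tested.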

How the data were processed

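Normalized signal intensities of 4 arrays, as the authors deposited them in 1 table, were the starting point. Affymetrix Expression Console is named by the submitters' processing notes. The background correction and normalization are not given in the sources used here, and precision is limited by the 1 array per condition. Of 65956 features, 30638 had 1 gene symbol, 2176 several and 33142 none; 22596 were matched to RefSeq. For genes with several features the brightest was used. Pseudogenes were left out by symbol (4) and by RefSeq (3). *Ndufa11*, *Ndufb4* and *Ndufs6* lie only in features of several symbols and were not members.

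Log2 signals were analysed with Python 3.11.15, NumPy 2.4.6, pandas 2.3.3, SciPy 1.17.1, R 4.3.3 and limma 3.58.1 (Benjamini-Hochberg over all genes) and plotted with matplotlib 3.10.9. The paper's ratio limits are printed with their signs the other way round; a ratio above 1.5 or below 0.66 was used. The calls were tested on simulated data. Named were all called members, the 2 brightest and the 2 with the largest difference in each complex, tissue isoforms with their partners, core and F1 subunits, and called genes of the other lists; any others were picked with their values in view. The members and lists were chosen with earlier results of these data known.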

Additional observations from a re-analysis of the deposited data

Results flagged for a closer look

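In 4 subunit genes the *Tyk2*-/- minus *Tyk2*+/+ difference lay past the ratio limits in opposite directions at the ages, which 1.44% of all genes did. The share among genes of like signal was not counted, and most members are brighter than most genes. With 1 array per condition the difference was not tested. *Cox6a2* was at 0.94 at 11w and −1.08 at 6w, a difference of 2.01 on the log2 scale, and its age change was likewise opposite, 1.08 among *Tyk2*-/- and −0.94 among *Tyk2*+/+ arrays, also 2.01 apart (1.17% of all genes had such opposite age changes). *Ndufa4* was at 1.07 at 11w and −0.65 at 6w (1.73 apart), *Uqcr10* at 0.66 at 11w and −0.89 at 6w (1.55 apart) and *Ndufb3* at 0.59 at 11w and −0.60 at 6w (1.19 apart). In *Ndufa4*, *Ndufb3* and *Uqcr10* the age change was negative in both genotypes.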

How the results depend on the processing

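The median age difference of the members was below 0 in all 9 settings that act on it, between −0.45 and −0.12 among *Tyk2*-/- arrays and between −0.68 and −0.21 among *Tyk2*+/+ arrays. It moved by more than 0.1 only with scaling: centring each array on its median gave −0.45 (*Tyk2*-/-) and −0.68 (*Tyk2*+/+), and quantile normalization −0.12 (*Tyk2*-/-) and −0.21 (*Tyk2*+/+). The additive fit called 0 members in every setting. At an unadjusted p under 0.05 of the limma fit, 12 to 41 members passed for age. The 12 came from a fit whose variance followed the mean signal, beside 3241 of 30176 genes. The 41 came from centred arrays, beside 3345 of 30176 genes.

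Counts of called members are small and depend on the criteria. The share of all genes called was counted only for the main criteria, so the counts below stand without a background share. With 1 SD over all features they were 5 (11w genotype), 5 (6w genotype), 10 (*Tyk2*-/- age) and 15 (*Tyk2*+/+ age); with a ratio above 2 or below 0.5 alone, 6 (11w genotype), 4 (6w genotype), 11 (*Tyk2*-/- age) and 19 (*Tyk2*+/+ age). A narrower window of features gave 2 at 11w between genotypes. Quantile normalization gave 1 for the *Tyk2*+/+ age. Between the 6w genotypes 1 was left with genes at or above the median signal, with signal plus 16, and without the dim members, *Ndufb4b* and *Ndufb4c*, the last an alternative chosen after seeing the data, as were keeping RefSeq pseudogenes, using the feature on the gene's own chromosome and leaving out members with the scale step. With 1 array per condition no array could be left out. No paired analysis was possible because the conditions share fewer than 2 replicate numbers; the age term of the additive fit compares the ages within genotype.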
